A study of Mus musculus with 3 samples.

Results

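The comparison described here sets Flk1+ against Flk1- cells sorted from differentiating mouse embryonic stem cells in which, by the labels, Snail had been switched on. Its members are 2 of the 3 arrays of the series, chosen by their labels: 1 array of Snail-induced Flk1+ cells and 1 of Snail-induced Flk1- cells. Both came from the A2.snail line, which carries an inducible Snail gene, grown as embryoid bodies, with serum and the protein DKK1 in the medium, and given 250 ng/mL doxycycline on day 2, with RNA taken on day 3. The third array, of Flk1- cells from a culture without doxycycline, is printed beside them for context. Embryoid bodies are floating aggregates in which stem cells begin to form germ layers, DKK1 is a secreted inhibitor of Wnt signalling, and doxycycline is the drug that turns on the transgene. The labels give both sorted fractions the same line, treatment and day, and do not say whether they came from the same dish. Both arrays compared were of induced cells, so they do not show what Snail or doxycycline changed, the effects of the drug and of Snail cannot be told apart, and untreated Flk1+ cells are not analysed here. Values are array intensities, given throughout in the order untreated Flk1-, Snail-induced Flk1-, Snail-induced Flk1+.

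Flk1, encoded by Kdr, is the main receptor for vascular endothelial growth factor (VEGF). It appears on mesoderm leaving the primitive streak, and cells that carry it can give rise to endothelium, blood and parts of the heart and smooth muscle. Snail, the product of Snai1, is a zinc finger repressor that binds E-box sequences near epithelial genes and drives the change from epithelial to migrating mesenchymal cells, a step that mesoderm takes as it forms. Mesoderm normally depends on Wnt signals, which DKK1 blocks in this medium.

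With 1 array per side there was no replicate, so no test was made and no p-value is given; a gene is called higher or lower when the sides differed at least 2-fold on the scale log2(intensity + 9.53). The offset is the 20th percentile of all values. A gene counts as measured when it reached an intensity of 25.6, called the floor below (the 40th percentile over every value deposited), in 1 or both of the 2 arrays. Where the dimmer side lay under the floor, a fold is the brighter value over the floor and is written as at least that size. Of 18193 named genes 13623 were measured; 689 of these (5.06%) were called higher in Flk1+ cells and 676 (4.96%) lower, and these percentages are the background against which each gene list is to be read. The largest differences lay on the side of the Flk1+ cells. On the scale with the offset, 98 genes on that side differed at least 5-fold and 46 at least 10-fold, against 58 and 5 genes that were lower by as much. These counts do not use the floor, so some genes in them have a smaller fold as written in this report. Examples past 10-fold on that scale are Hpgd, written as at least 7.61-fold higher, and Cldn6, at least 8.98-fold lower. The median over all measured genes was 0.00 on the log2 scale. The dimmer side lay under the floor for 209 of the higher and 211 of the lower genes, and for 123 and 102 of these the brighter value was less than 2-fold above the floor, so that the call rests on the dim value below the floor. Of genes with more than 1 measured probe set, all probe sets had the same sign in 265 of 285 higher genes (93.0%) and in 195 of 241 lower genes (80.9%). Some calls given below were lost under other settings. When the probe sets of a gene were averaged and not represented by the brightest, Aldoc, Bcl2l11, Bmpr2, Ddr1, Dtx1, Edil3, Foxf2, Hoxa9, Itgav, Klf3, Klf5, Klf9, Lama4, Lama5, Laptm5, Lifr, Meis1, Msx1, Smad1, Sparc, Stat3, Tbx20, Tspan18, Tspan9 and Zeb2 were within 2-fold. With the offset raised to the 40th percentile, Arhgef16, Cd248, Cdkn2b, Cxcr4, Elf3, Foxf2, Hba-x, Hey1, Hoxa4, Hoxa9, Klf7, Laptm5, Pecam1, Peg10, St14 and Zeb2 were, and Grb10 was with quantile normalisation. In bulk RNA of sorted cells, fewer cells of a type and less RNA per cell cannot be told apart, and array levels are not compared between genes here.

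**Figure D1:**
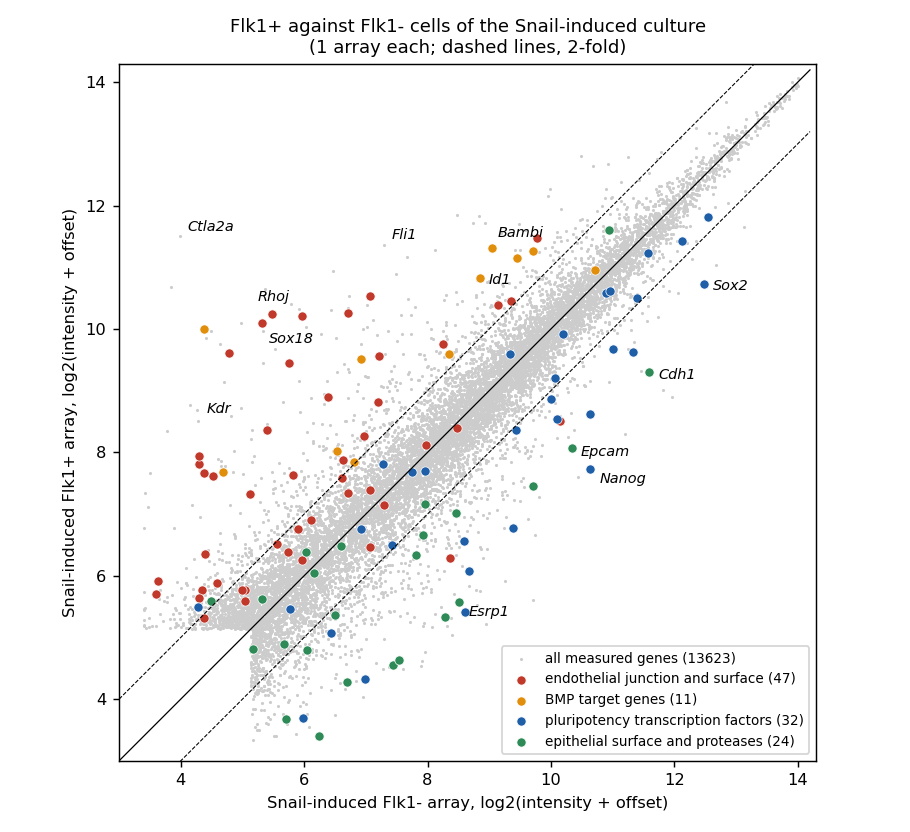
Each point is 1 measured gene, with log2(intensity + 9.53) in the Snail-induced Flk1- array on the horizontal axis and in the Flk1+ array on the vertical axis; 4 gene lists are coloured. Endothelial surface genes and BMP targets lie mostly above the upper 2-fold line, pluripotency and epithelial genes mostly on or below the lower one.

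The sorted gene checks the labels. Kdr read 10.5, 9.73 and 404, so the Flk1+ array alone was above the floor; since the cells were sorted on its protein this is no finding. The single Snai1 probe set read 29.1, 13.1 and 19.8, near or under the floor throughout, and says nothing about the transgene. Flt1, the VEGF receptor that acts largely as a decoy, read 18.2, 16.4 and 556 and was at least 21.7-fold higher. Flt4, the receptor for VEGF-C, read 108, 204 and 1186 and was 5.61-fold higher. The co-receptor gene Nrp1 read 12.6, 25.7 and 287 and was 8.43-fold higher, whereas its paralog Nrp2 read 194, 133 and 136 by its brightest probe set and was not past 2-fold; with the mean of all its probe sets it was higher, by 2.19 on the log2 scale. Thus 3 of the 4 receptor genes other than Kdr were called higher, and 0 of 5 ligand genes were called in either direction; Vegfa itself read 90.3, 156 and 225. The angiopoietin receptor gene Tek read 58.1, 82 and 920.0, 10.2-fold higher in Flk1+ cells.

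Genes for the transcription factors that build the endothelial and blood programme were among the largest differences. All 3 SoxF genes, which act early in vessel formation, were higher (median 3.80 on the log2 scale). Sox18 read 3.33, 30.2 and 1082, Sox17 68.3, 96.2 and 1466 and Sox7 95.5, 95.1 and 1291; for Sox17 and Sox7 the Flk1- arrays of the treated and the untreated culture lay close together and the Flk1+ array stood alone. Of 18 ETS family genes 6 were higher and 1 lower. Erg was at 1, 4.17 and 317, under the floor in both Flk1- arrays. Fli1, a partner of Erg, gave a graded series of 16.8, 147 and 2632, and was 16.8-fold higher in Flk1+ than in induced Flk1- cells. Etv2, the ETS factor that starts the endothelial and blood lineages, read 356, 711 and 2467, 3.44-fold higher. Ets1 at 117, 758 and 3106 and Elk3 at 149, 709 and 3336 had the same order of the 3 arrays, and Ets2 read 410.0, 299 and 1406. The 1 lower member was Elf3, an epithelial ETS gene, at 54.5, 80.5 and 31.8.

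Of 22 further endothelial regulators 11 were higher and 1 lower. Tal1 and Lmo2, which form a complex needed for all blood and for vessel remodelling, read 61.2, 67.5 and 960.0 and 98.5, 78.8 and 1956. Hhex, a homeobox gene of early endothelium and endoderm, read 191, 169.9 and 1888 and was 10.6-fold higher. Mef2c, a regulator of vascular and cardiac development, read 2.55, 82.7 and 621, and Foxc1 15.9, 90.2 and 681; both were already above the floor in induced Flk1- cells but not in untreated ones. The exception was Klf2, a gene that endothelium expresses under blood flow, at 796, 1082 and 364 and 2.92-fold lower. Cbfa2t3, a corepressor that works in the Tal1 complex, read 17.9, 15.4 and 857, at least 33.5-fold higher, and Mecom, a regulator of blood stem cells, read 11.6, 30.9 and 688.

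Genes of the mature endothelial surface followed. Of 47 measured junction and surface genes 29 were higher and 2 lower, with a median of 1.34. Cdh5, which encodes the cadherin of endothelial junctions, read 19.6, 13.5 and 187, and the junction gene Esam read 51.1, 44.6 and 688. Cd34, a sialomucin of vessels and blood stem cells, read 13.2, 32.7 and 321; Icam2 read 3.73, 10.1 and 215 and Ecscr 37.3, 95.6 and 1222. In these genes the Flk1+ array stood above both Flk1- arrays by a wide margin. Smaller differences were seen in Eng, a co-receptor for BMP9, at 118, 137 and 442, and in Egfl7, a secreted vascular factor, at 1007, 866 and 2833. Genes of later endothelium were dim: Pecam1 reached 44.8 and Tie1 42.8 in Flk1+ cells, and Plvap read 36, 25.4 and 151. The 2 lower members, Pdpn at 1806, 1128 and 357 and Jam2 at 204, 319.6 and 68.3, are also expressed by cells outside the vessel wall, the latter by embryonic stem cells.

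In the list of apelin, sphingosine, chemokine and adrenomedullin receptors and their ligands 9 of 25 measured genes were higher and 2 lower, with a median of 0.07. Aplnr, the apelin receptor, read 5.56, 30.9 and 991, 24.7-fold higher, whereas its ligand genes Apln and Apela read 107, 102 and 111 and 634, 939.8 and 739. Calcrl, the receptor for adrenomedullin, read 5.93, 51.2 and 1277 and its partner Ramp2, which carries it to the membrane, read 170.0, 345 and 3657, 10.3-fold higher. Adm, the ligand gene, was at 90.6, 58.5 and 37.3. S1pr1, a sphingosine phosphate receptor, read 27, 11.1 and 195, and Spns2, which exports that lipid, 35.5, 37.1 and 137. Cxcl12, a chemokine that attracts cells, went the other way at 554, 337 and 42.5, 6.66-fold lower, while its receptor gene Cxcr4 lay near the floor at 21.4, 9.5 and 29.4. Cxcr4 counts among the higher genes, although its brighter value was only 1.15-fold above the floor. Of the guidance lists, semaphorins had 1 of 17 genes higher and 2 lower, plexins 2 of 8 higher and 0 lower, and Eph receptors 1 of 9 higher and 3 lower. Sema6d, a guidance ligand of heart and vessel, read 23.2, 181 and 1187, and Plxnd1, a semaphorin receptor of endothelium, 205, 163 and 571. Ephb4, the receptor of venous endothelium, read 139, 179 and 403, against 95.7, 257 and 45.5 for Epha4, which was 4.85-fold lower.

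Small GTPases and their regulators were called in both directions, more of them higher. Rhoj, a Cdc42-like GTPase of endothelium, read 6.54, 35.1 and 1204, 27.2-fold higher, Gem read 14, 15.6 and 210.2 and Rhob 666, 1085 and 3034. Of 40 measured exchange factors, activating proteins and related Ras regulators 15 were higher and 5 lower, with a median of 0.57. Rasgrp3, an exchange factor for Ras and Rap1, read 13.6, 9.92 and 354; Rasip1, which is needed for the vessel lumen, read 49.5, 73.8 and 469; Fgd5, a Cdc42 exchange factor of endothelium, read 122, 139 and 748; and Arhgap31 read 4.95, 40.9 and 442. On the other side Mcf2 was at 202, 309 and 27, 8.71-fold lower, Mcf2l at 175, 105 and 10.1, and Arhgef16 at 202, 71.8 and 26.6. Rgs2, which dampens signalling by Gq-coupled receptors, read 444, 479.9 and 3375 and was 6.91-fold higher. Among the actin-binding genes that were named after their values were seen, Ezr, encoding the ezrin of epithelial microvilli, was at 1696, 656 and 172 and 3.66-fold lower, while its paralog Msn, encoding moesin, was at 786, 1056 and 2699 and 2.54-fold higher.

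**Figure D2:**
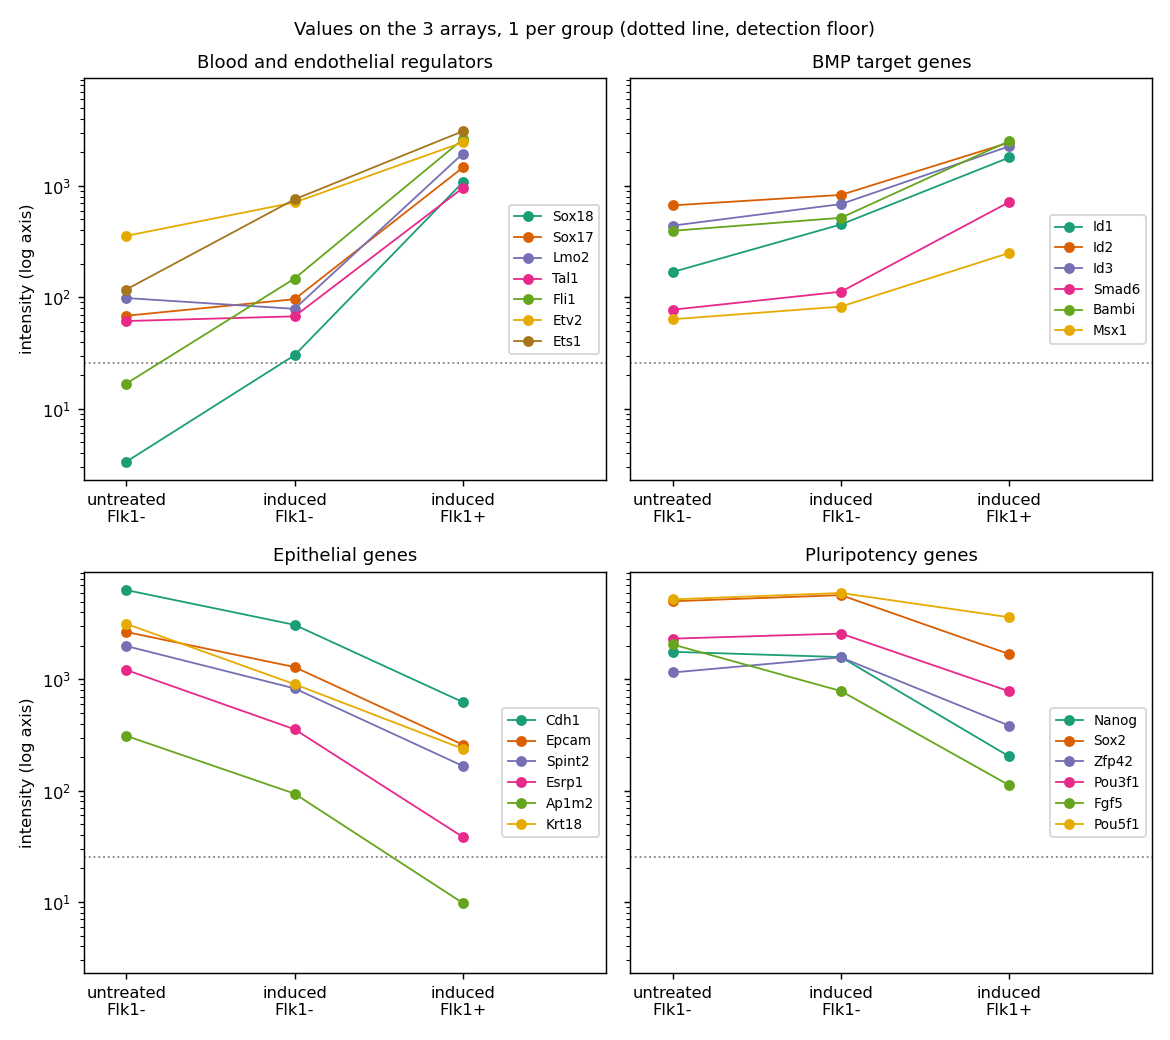
Intensities (log axis) of 25 genes on the 3 arrays, 1 per group, with lines joining the values of 1 gene and a dotted line at the floor of 25.6. Sox17, Tal1 and Lmo2 were level in the 2 Flk1- arrays and higher in Flk1+ cells, the epithelial genes shown were lower at each step, and the pluripotency genes other than Fgf5 lay within 2-fold of each other in the Flk1- arrays and were lower in Flk1+ cells.

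Blood genes were called higher among regulators and among surface and effector products. Of 20 hemangioblast and blood transcription factor genes 9 were higher, among them Lyl1 at 43.8, 26.2 and 220.0, Zfpm1 at 63.3, 106 and 502 and Meis1 at 16.6, 72.1 and 259. Runx1, the switch from endothelium to blood, was not past 2-fold at 96.3, 83.1 and 143, nor was Gata1, the erythroid regulator, at 51.3, 32.5 and 44.5. Myb, needed for adult-type blood, read 1179, 702 and 249.9 and was 2.74-fold lower. Kit, the stem cell factor receptor, read 128, 70.1 and 429.7, and its ligand gene Kitl 95.7, 143 and 532. Both were higher in the Flk1+ array, and whether the same cells express them was not tested. Of 15 blood surface and effector genes 5 were higher and 0 lower; beside Kit and Cd34 these were Laptm5, a lysosomal protein gene of blood cells, at 54.3, 169.8 and 349.7, and the dim Ptprc, the pan-leukocyte CD45 gene, at 38.4, 7.46 and 60.6 and Il6ra, an interleukin receptor gene, at 41.1, 5.8 and 50.1. In the erythroid list 1 of 5 measured genes was higher, the embryonic globin gene Hba-x at 17.4, 13.9 and 38.1, whose brighter value was less than 2-fold above the floor, and Hbb-bh1 read 21.4, 16.9 and 30.4. The platelet integrin gene Itga2b read 295, 182 and 262. In the macrophage list 0 of 7 measured genes were called, with Csf1r at 83.5, 75.8 and 109 and Cd68 at 114, 107 and 60.04. Klhl6, a gene of B cells and endothelium, read 23.5, 8.28 and 426, and Gimap4, of the lymphocyte and vascular GTPase family, 17.2, 10.0 and 235.

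Among mesoderm genes the lateral class stood out. Of 17 lateral and extraembryonic mesoderm genes 10 were higher and 0 lower, with a median of 1.21, while 0 of 9 paraxial and somite genes were called. Msx1 read 63.5, 82.5 and 250.3, Gata6 22.1, 35.6 and 152 and Pmp22 78.6, 220.1 and 566, and Hand1, a lateral mesoderm gene, was level at 72.2, 53.8 and 72.6. Of 19 cardiac genes 6 were higher and 1 lower; Isl1, which marks progenitors of the heart's outflow side, read 41.1, 198 and 621, Nkx2-5 50.5, 41.2 and 136 and Tbx20 7.66, 9 and 67.7. Zfpm2, a cofactor of GATA proteins in the heart, read 7.65, 112 and 858, 7.14-fold higher. Genes of the primitive streak, which mesoderm leaves behind, did not share a direction, with 2 of 15 higher and 4 lower: Mixl1 read 28.5, 51.6 and 71.2, Eomes 153, 190.0 and 96.6 and Fgf8 73.2, 57.6 and 10.7. Lhx1, a gene of streak, nephric and nascent mesoderm, was under 2 intensity units in both Flk1- arrays and reached 129 in Flk1+ cells. Pdgfra, which marks paraxial and cardiac mesoderm, read 27.5, 202 and 123, so it was not higher in the Flk1+ cells.

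BMP signalling directs mesoderm towards the lateral and blood-forming side. Its listed target genes were higher almost throughout, and the level of signalling was not measured. Of 11 measured targets 10 were higher and 0 lower, with a median of 1.71. The member with the largest difference is also counted in the lists of endothelial regulators and of blood factors. The Id genes encode inhibitors of bHLH factors: Id1 read 169, 451 and 1802, Id2 669.5, 831 and 2458, Id3 440.0, 687 and 2272 and Id4 122, 316 and 766. The feedback inhibitor genes Smad6 and Bambi read 77.4, 112 and 718 and 396, 518 and 2536, but Smad7, which TGF-beta also induces, was level at 1518, 1679 and 1984. Of 11 receptor and Smad genes 5 were higher (median 0.64), including the signal carrier Smad1 at 590.0, 744 and 1545, the type 2 receptor gene Bmpr2 at 562, 605 and 1413 and Acvrl1, the endothelial receptor of BMP9, at 28, 15.3 and 94.2; with the mean of all probe sets Smad1 and Bmpr2 were not past 2-fold. Among ligands Bmp6 read 19.8, 26.9 and 236 and Bmp2 13.1, 36.1 and 176, both higher, whereas Bmp4, the ligand that induces mesoderm, was not past 2-fold at 124, 195 and 116.

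Nodal signalling sustains the pluripotent epiblast and induces endoderm. Genes for Nodal itself and for its feedback inhibitors Lefty1 and Lefty2 were lower, and the level of signalling was not measured. Not every inhibitor gene was lower, as Dand5 was higher by 1.80 on the log2 scale. Nodal read 1456, 1436 and 698, 2.04-fold lower, its feedback inhibitor genes Lefty1 and Lefty2 read 4672, 6552 and 2084 and 352, 478 and 175, and Gdf3 read 1456, 1124 and 375. Fst, which encodes the activin trap follistatin, read 422, 235 and 46.2, 4.38-fold lower. In contrast Tgfb1 at 49.9, 39.8 and 168 and Tgfb2 at 46.2, 53.3 and 177 were higher, together with the receptor genes Tgfbr2 at 44.5, 121 and 587 and Tgfbr3 at 41.5, 119.6 and 587. In the ligand list 2 of 15 genes were higher and 5 lower. The list of TGF-beta and activin receptors and Smads had 3 of 13 higher and 1 lower, with a median of 0.21. Acvr1b, an activin receptor gene, was higher by 1.07 on the log2 scale.

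In the Wnt pathway different receptors were higher and lower. Of 20 receptor and co-receptor genes 4 were higher and 4 lower (median -0.03). Fzd4, the Frizzled of endothelium, read 73.3, 73.6 and 560.2, 6.85-fold higher, and its co-receptor gene Tspan12 read 259, 366 and 933; Rspo3, an enhancer of Wnt signalling needed in vessels, read 16.9, 50.6 and 559. Fzd5 read 349, 350.0 and 96.2 and Fzd6 272, 126 and 27.5, both lower. Of 10 Wnt antagonist genes 2 were higher and 0 lower, among them Dkk1, higher by 1.83 on the log2 scale. The Wnt target genes gave no common direction, 2 of 12 higher and 1 lower. Notch1 read 253, 305 and 933, 3-fold higher, while none of 6 measured Notch ligand genes was past 2-fold (Jag1 249.8, 378 and 537, Dll1 146, 139 and 127). Of 9 Notch targets 2 were higher, Hey1 at 88.3, 103 and 220.2 and Nrarp at 138, 111 and 293, and 3 lower, Hes6, Dtx4 and Dtx1, the last at 422, 197 and 46.2 and not past 2-fold with the mean of all probe sets.

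**Figure D3:**
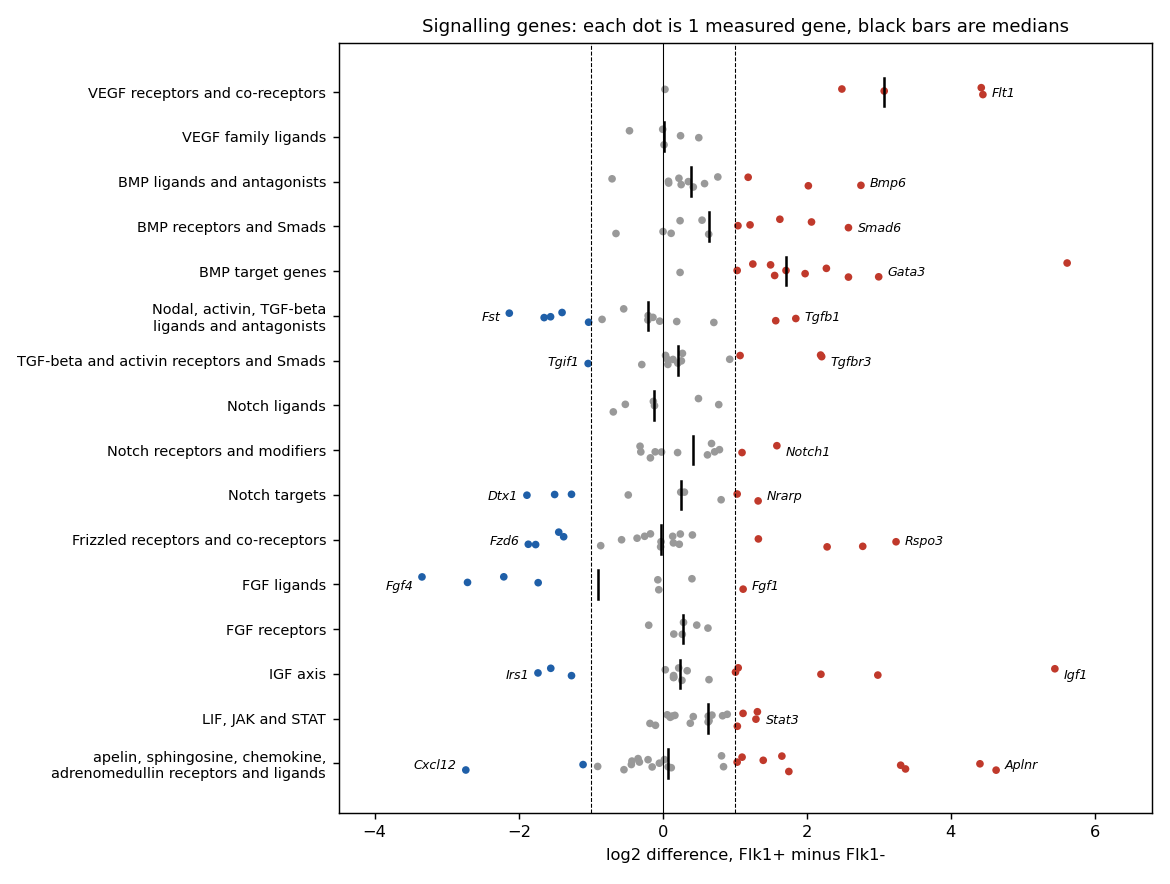
Log2 difference, Flk1+ minus Flk1-, of each measured gene (dot) in 16 signalling lists, with medians as black bars and 2-fold marked by dashed lines; red dots are called higher and blue dots lower. VEGF receptors (Kdr, the sorted gene, among them) and BMP targets lie mostly to the right, FGF ligands and Nodal pathway ligands reach to the left, and VEGF and Notch ligands lie between the dashed lines.

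Growth factor genes differed in both directions. FGF ligand genes were lower, 4 of 8 against 1 higher: Fgf5, a marker of the primed epiblast, read 2058, 785 and 112 and Fgf15 917, 805 and 167. Fgf4 read 568, 326 and 23.5 by its brightest probe set, although its probe sets did not share a sign. FGF receptor genes were level, with 0 of 6 called. Igf1 read 11.7, 11.7 and 913, at the same dim level in both Flk1- arrays and at least 35.7-fold higher in Flk1+ cells. Igf2, the main embryonic insulin-like growth factor, read 121, 449 and 3620.3, 7.92-fold higher, and the binding protein gene Igfbp4 199.7, 984 and 4542. Igfbp2 at 3492, 2589 and 874 and the adaptor gene Irs1 at 666, 914 and 268 were lower. Of 16 other receptor tyrosine kinase genes 4 were lower and 0 higher, with a median of -0.04: Erbb3 read 507, 164 and 13.8, Met, the receptor for hepatocyte growth factor, 302, 128 and 29.4, and Mertk 134, 86.3 and 27.1. Ddr1, a collagen receptor gene at 1866, 1280.0 and 389, was lower by its brightest probe set, but its probe sets differ in sign and their mean was not past 2-fold. In the LIF and STAT list 4 of 18 genes were higher and 0 lower, with Lifr, the receptor that keeps mouse stem cells undifferentiated, at 632, 1408 and 3464, Stat3 at 219.9, 432 and 1087 and Socs3 at 274, 647 and 1412.

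Matrix genes were called in both directions, more of them higher. Of 17 hyaluronan and proteoglycan genes 3 were higher and 2 lower, and of 20 interstitial collagen genes 3 and 1. Of 26 other matrix genes 4 were higher and 2 lower, and of 16 integrin genes 3 and 1. Of 14 serpin, plasminogen and coagulation genes 4 were higher and 2 lower. Of 23 basement membrane genes 7 were higher and 1 lower. Col4a1 and Col4a2, the collagen chains of basement membranes, read 1023, 1423 and 7178 and 470.2, 573 and 3004, and Nid1, their linker, 306, 676 and 2485. Lama5, the laminin chain of epithelial sheets, was lower at 309, 143 and 58.3, while Lama4, the chain of vessels, read 12.2, 75.6 and 179.6 by its brightest probe set, with probe sets of both signs, as had Sparc at 1567, 2024 and 4502. Fn1, the fibronectin gene, read 1367, 1640.3 and 6394, 3.88-fold higher, and Fbn2 107, 433 and 1451. Hapln1, which links hyaluronan to its proteoglycans, read 3.72, 22.1 and 1092, at least 42.7-fold higher, and Has2, which makes hyaluronan in the early heart and vessels, 214, 487 and 1734. The integrin genes Itga1 and Itgav read 14.9, 118 and 594 and 903, 1437 and 3516. The coagulation inhibitor gene Tfpi of endothelium read 212, 305 and 1067, and F3, the tissue factor that it inhibits, read 107, 91.9 and 17.

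Many genes of the pluripotent state were lower, though Pou5f1, at its core, was not past 2-fold. Of 32 pluripotency transcription factor genes 16 were lower and 1 higher, with a median of -1.0. Nanog read 1767, 1584 and 203, 7.51-fold lower. Nr0b1 read 321, 382 and 32.8, Zfp42 1152, 1574 and 383, Tfcp2l1 87.8, 117 and 10.5 and Sox2, which also specifies neural cells, 5023, 5709 and 1683. For Nanog, Nr0b1, Zfp42 and Sox2 the 2 Flk1- arrays differed by less than 2-fold. Pou5f1, Sall4, Esrrb and Klf4 were not past 2-fold, at 5224, 5963 and 3607, 3951, 4447 and 2748, 264, 238 and 197 and 391, 639 and 765 in turn; Esrrb differed by -1.87 on the log2 scale once probe sets that may match more than 1 transcript were left out. Of 37 stem cell effector genes 19 were lower and 1, the junction gene Pecam1, higher. Eras, a Ras protein active only in early embryonic cells, read 1509.5, 829 and 39; Pim2, a survival kinase gene, 4492, 3602 and 508; Slc7a3, an arginine transporter gene, 4768, 2338 and 306; and Chchd10, a mitochondrial protein gene, 5941, 3982 and 469.

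Of 21 genes of the later, primed epiblast 11 were lower and 0 higher, including Otx2 at 2285, 2045 and 807, Pou3f1 at 2319, 2576 and 779.8, Foxd3 at 592, 656 and 99.8 and Zic5 at 1381, 1236 and 296. In the neural list 6 of 25 were lower, several of them shared with the epiblast list, and 3 higher, among them Irx3 at 41.8, 159 and 629. Among genes that keep DNA methylation and Polycomb states in stem cells, Dnmt3l read 162, 232 and 43 and Phc1 4715, 4262 and 1523, both lower, whereas Tet2, which oxidises methylcytosine and is active in blood, read 63, 100.5 and 299.9, and Pcgf5, a Polycomb ring partner, 361, 202 and 960.0. Dnmt3b, the methyltransferase of the epiblast, stood at 10773, 9029.9 and 4801 and was not past 2-fold, though the mean of all its probe sets was, at -1.28 on the log2 scale. The metallothionein genes Mt1 and Mt2, which bind zinc and copper, read 1751, 1509 and 249 and 1554, 1386 and 185 and were lower by 5.88-fold and 7.19-fold.

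Of the epithelial lists, that of surface and protease genes held most of the lower genes, in a comparison where the Flk1- cells had also been exposed to doxycycline. Of 24 epithelial surface and protease genes 15 were lower and 1 higher, with a median of -1.36. Cdh1, encoding E-cadherin, read 6338, 3086 and 624, 4.89-fold lower, and the adhesion gene Epcam 2664, 1288 and 258, 4.84-fold lower. Esrp1, a splicing factor of epithelial cells, read 1215, 356 and 38.3, the adaptor gene Grb7 720.0, 301 and 30.7, and Ap1m2, a sorting adaptor of epithelial membranes, 311, 93.9 and 9.77. The protease inhibitor genes Spint1 and Spint2 read 547, 235 and 91.4 and 1992, 829 and 166, and the membrane protease genes they control, St14 and Prss8, read 223, 56.8 and 18.3 and 109, 42.8 and 3.23. All of these had the order untreated, induced Flk1-, Flk1+ from high to low. The other epithelial lists had fewer calls: 3 of 10 claudin genes were lower (median 0.03), 2 of 9 desmosome genes (-0.63), 1 of 13 keratin and other intermediate filament genes (0.20) and 2 of 19 polarity genes (-0.01), with 0 higher in these lists, and 3 of 11 further tight junction genes were lower against 2 higher (-0.63). Cldn6 and Cldn7, claudins of embryonic epithelium, read 1151, 229.5 and 13.6 and 949.8, 152 and 42. Pard6b, a polarity gene, had the same order at 643, 258 and 26.4, as did Krt18 at 3152, 904 and 238, but its keratin partner Krt8 was level at 625, 523 and 644 and Tjp1, a scaffold of tight junctions that endothelium also uses, was higher at 2012, 1801 and 4059.

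Of 13 mesenchymal transcription factor genes 4 were higher and 1 lower. Twist1 read 49.9, 186 and 410.2 and Zeb2 64.9, 268 and 557, and Zeb1 was not past 2-fold at 121, 471 and 667. Vim, the vimentin gene, read 3354, 5233 and 9821, and Cdh2, encoding N-cadherin, 539, 797 and 1249, both below 2-fold by their brightest probe sets; with the mean of all probe sets Vim was past it, at 1.37 on the log2 scale. Snai2, the paralog of Snail, read 48.6, 63.6 and 42; with probe sets that may match more than 1 transcript left out it differed by -1.07 on the log2 scale.

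Because Snail and Zeb proteins bind the E-box CAGGTG, whose other strand reads CACCTG, promoter sequences of RefSeq, build GRCm38.p6, were searched for it on both strands, from 250 bases before to 50 after each gene's start. A window was in the table for 10942 of 13623 measured genes (80.3%), but for only 528 of 689 higher genes (76.6%) and 527 of 676 lower genes (78.0%). Both fall short of 80%, so the shares are void as a check of the whole sets and describe only the genes with a window. Among these, 31.3% of the lower genes held CAGGTG, against 18.2% of all measured genes, 14.4% of the higher genes and 20.2% of all 32851 windows in the table. By size of difference the share was 44.7% of 85 genes more than 4-fold lower, 28.7% of 442 genes 2- to 4-fold lower, 15.8% of 436 genes 2- to 4-fold higher and 7.61% of 92 genes more than 4-fold higher. Genes within 2-fold lay between, without a steady order: the share was 21.8% and 17.8% in the classes lower by 0.5 to 1 and by up to 0.5 on the log2 scale, and 16.3% and 17.8% in those higher by up to 0.5 and by 0.5 to 1. A related E-box, CAGCTG, the same on both strands and read by bHLH factors such as Tal1, was held by 18.8%, 17.2%, 20.6% and 13.0% in the 4 classes past 2-fold. Without the split by size, 19.3% of higher, 17.5% of lower and 15.3% of all measured genes with a window held CAGCTG. The windows of lower genes held a median of 15 CG dinucleotides and those of higher genes 17, against 20 over all measured genes. In windows with 10 to 19 of them CAGGTG was held by 35.0% of lower, 12.1% of higher and 19.2% of all genes, and in windows with 30 or more by 42.7%, 12.3% and 15.0%; in windows with fewer than 10 it was held by 22.4% of lower, 16.8% of higher and 21.8% of all genes. A match says that these letters are present and is not a binding site.

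**Figure D4:**
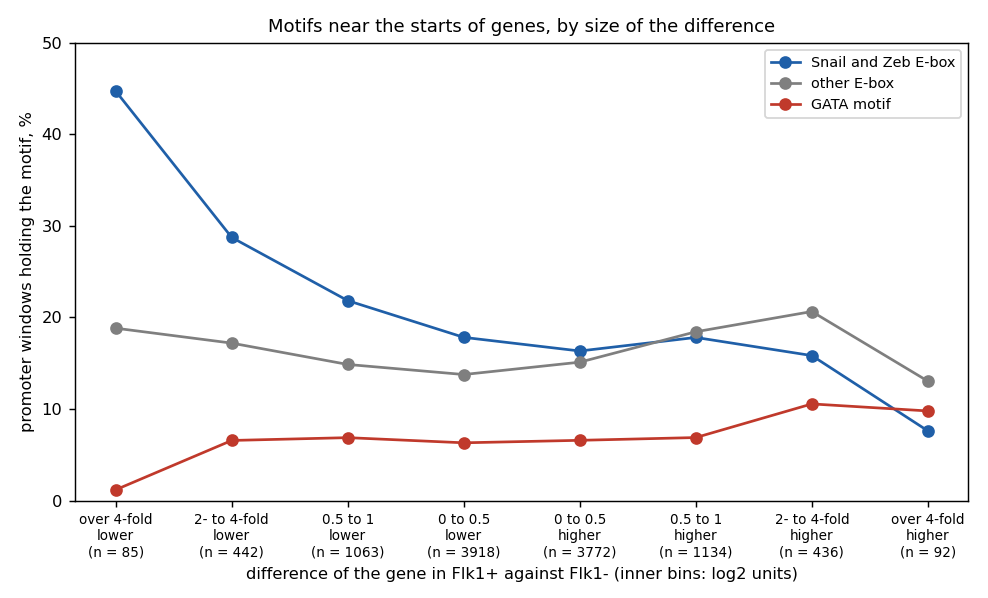
Share of promoter windows (250 bases before to 50 after the start) that hold each of 3 motifs, for genes grouped by their difference between Flk1+ and Flk1- cells; the number of genes with a window stands under each class. The share with the Snail and Zeb E-box goes from 44.7% in genes more than 4-fold lower in Flk1+ cells to 7.61% in genes more than 4-fold higher, while the other E-box lies between 13.0% and 20.6% in all classes.

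The letters are shown for 5 lower genes, 4 of the epithelial list and Nanog, each printed 5' to 3' on the gene's own strand as the 250 bases before its start, with CAGGTG or CACCTG in capitals. Ap1m2 (chr9:21312334-21312583, minus strand) held 4 matches; Spint2 (chr7:29281978-29282227, minus strand) and Mapk13 (chr17:28769067-28769316, plus strand), a stress kinase gene of epithelia at 268, 66.2 and 1, held 3 each. Epcam (chr17:87635729-87635978, plus strand) held 2 and Nanog (chr6:122707239-122707488, plus strand) 1. Of the 11 epithelial surface genes with a window 8 held the E-box, and of the 6 lower ones among them 5 did.
Ap1m2: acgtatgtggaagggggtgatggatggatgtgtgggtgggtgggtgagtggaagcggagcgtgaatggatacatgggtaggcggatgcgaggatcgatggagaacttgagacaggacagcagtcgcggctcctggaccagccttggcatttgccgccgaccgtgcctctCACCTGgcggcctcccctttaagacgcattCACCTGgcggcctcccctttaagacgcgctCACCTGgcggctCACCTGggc
Spint2: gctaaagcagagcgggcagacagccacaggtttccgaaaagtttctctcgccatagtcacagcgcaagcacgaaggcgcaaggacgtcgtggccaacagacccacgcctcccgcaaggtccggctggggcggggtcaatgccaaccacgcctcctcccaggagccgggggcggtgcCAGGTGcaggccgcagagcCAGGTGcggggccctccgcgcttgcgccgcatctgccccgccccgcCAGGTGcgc
Mapk13: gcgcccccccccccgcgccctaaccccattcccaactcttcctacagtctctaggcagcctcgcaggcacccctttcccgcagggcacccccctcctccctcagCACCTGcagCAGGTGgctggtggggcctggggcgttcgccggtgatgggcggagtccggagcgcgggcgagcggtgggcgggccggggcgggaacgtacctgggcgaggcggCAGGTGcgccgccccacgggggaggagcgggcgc
Epcam: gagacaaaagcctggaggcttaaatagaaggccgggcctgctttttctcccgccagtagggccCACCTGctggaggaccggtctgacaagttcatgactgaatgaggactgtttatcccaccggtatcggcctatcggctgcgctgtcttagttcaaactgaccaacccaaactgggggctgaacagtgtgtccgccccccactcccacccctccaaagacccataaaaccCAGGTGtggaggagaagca
Nanog: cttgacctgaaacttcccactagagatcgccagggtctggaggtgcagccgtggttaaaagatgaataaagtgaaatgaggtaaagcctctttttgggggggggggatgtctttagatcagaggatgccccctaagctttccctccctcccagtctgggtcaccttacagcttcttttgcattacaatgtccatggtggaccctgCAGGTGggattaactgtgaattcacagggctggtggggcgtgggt

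The GATA motif AGATAA, whose other strand reads TTATCT, is bound by GATA factors of blood and heart; it was held by 10.4% of higher genes with a window, 5.69% of lower ones, 6.68% of all measured genes and 11.2% of all windows in the table. Of 92 genes more than 4-fold higher 9.78% held it and of 85 more than 4-fold lower 1.18%, which is 1 gene. The shares of this motif were not split by the number of CG dinucleotides. Fewer than 10 of these lay in 185 of 528 windows of higher genes, against 2286 of 10942 over all measured genes. The ETS core GGAAGT was not more frequent, with 23.9% of higher, 21.1% of lower and 26.9% of all measured genes. Further motifs were searched, with shares in the same order. They were 2.5%, 2.7% and 1.3% for the octamer ATGCAAAT and 15.5%, 13.3% and 12.1% for a TEAD site. An AP-1 site gave 4.5%, 5.7% and 3.6%, and the GATA form TGATAA 6.8%, 3.8% and 4.2%. A SOX core gave 5.5%, 5.7% and 6.1%, and a Notch site 5.7%, 7.8% and 6.2%. A BMP and Smad site gave 22.35%, 17.8% and 21.1%, and an SP and KLF box 57.4%, 61.5% and 62.7%. Windows of 2 higher genes are shown, Tal1 (chr4:115056176-115056425, plus strand) and Myct1 (chr10:5593478-5593727, plus strand), a vascular gene at 6.83, 18.1 and 774; each has 1 match, in capitals, in the 250 bases before the start.
Tal1: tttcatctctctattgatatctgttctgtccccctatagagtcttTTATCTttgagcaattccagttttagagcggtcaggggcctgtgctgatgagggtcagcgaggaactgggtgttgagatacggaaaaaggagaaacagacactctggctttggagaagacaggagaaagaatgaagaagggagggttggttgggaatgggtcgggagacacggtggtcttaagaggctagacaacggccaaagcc
Myct1: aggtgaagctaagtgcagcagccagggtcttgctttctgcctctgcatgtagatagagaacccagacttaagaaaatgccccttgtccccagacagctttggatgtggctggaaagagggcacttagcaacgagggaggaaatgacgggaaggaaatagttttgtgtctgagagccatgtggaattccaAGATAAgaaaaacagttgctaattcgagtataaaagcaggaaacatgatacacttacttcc

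Several large differences fell on adjacent genes. Of 13576 neighbouring pairs of measured genes on GRCm38.p6, 69 (0.508%) had both members higher and 64 (0.471%) both lower. The share of such pairs among called genes placed without regard to order was not computed, so the pairs are only a description. The higher pairs include Kit and Kdr, where Kdr is the gene of the sort and so no finding. The ETS genes lie in pairs, Fli1 beside Ets1 and Erg beside Ets2, and both pairs were higher. Calcrl and Tfpi, Notch1 and Egfl7, Col4a1 and Col4a2, and Hapln1 and Edil3 were further pairs of this kind, the last with Edil3, an integrin ligand gene of endothelium, at 27.2, 166 and 669; with the mean of all probe sets Edil3 was not past 2-fold and this pair is lost. Ctla2a and Ctla2b, neighbours that encode cysteine protease inhibitors, had the largest differences of all genes, at 9.36, 6.39 and 2896 and 1, 4.73 and 1627; the copies are near-identical, so the level of each is uncertain. Pairs with both members lower included Lefty1 and Lefty2, Mt1 and Mt2, and Lypd6 and Lypd6b, the Lypd6 gene, a Wnt co-receptor of the Ly6 family, at 250.1, 233 and 26.9.

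A small immune group was lower in Flk1+ cells. In the interferon, antigen presentation and complement list 5 of 26 genes were lower and 2 higher. Psmb8, a subunit of the immunoproteasome, read 66.5, 53.6 and 5.93, the viral tether gene Bst2 611, 228 and 49.1, the regulator Irf1 918, 1062 and 436 and Tapbp, which loads peptide on MHC class I, 613, 483 and 217. Further genes of this kind, named after their values were seen, were Psmb10 at 805, 551 and 124 and the interferon-inducible GTPase genes Igtp at 234, 165 and 33.8 and Irgm1 at 97.5, 137 and 31.8. Pycard, the adaptor of inflammasomes, read 239.7, 239.5 and 17.6, at least 9.37-fold lower. Higher in Flk1+ cells were Cd59a, an inhibitor of complement, at 64.9, 95 and 464, and, again named after its values were seen, Sting1, an adaptor in the response to cytosolic DNA, at 2.23, 26.2 and 319.

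Markers of cell types that the sorted fractions could also hold were read in the same way. In the primitive and visceral endoderm list 7 of 25 measured genes were higher and 2 lower; the higher ones were Sox17, Sox7, Hhex, Gata6, Col4a1, Col4a2 and Sparc, which vessels or mesoderm express as well. The defining endoderm genes Foxa2 at 20.1, 10.9 and 16.2, Afp at 15.3, 1 and 14.4 and Ttr at 11.6, 3.89 and 9.46 lay under the floor on all 3 arrays. In the definitive endoderm list 5 of 11 measured genes were higher, Sox17, Hhex, Gata6, Lhx1 and the dim Cxcr4, and 3 lower, Cldn6, Epcam and Trh. Of the 2 lower genes of the visceral list Cubn, an uptake receptor of visceral endoderm, read 219.6, 257 and 44. In the fibroblast list 1 of 11 genes was higher, Cd248 at 24.1, 52.5 and 123, and 1 lower, Dcn at 111, 276 and 58.6, and Col1a1 and Postn were under the floor at 4.45, 16.2 and 15.1 and 1, 1.95 and 3.23. In the mural cell list 1 of 11 was higher, Foxf2 at 15.9, 14 and 46.2, with Cspg4 under the floor at 1, 8.43 and 19.08. In the trophoblast list 4 of 14 were higher, among them Gata3 at 1.31, 16.3 and 197, a gene that BMP also induces, and Peg10 at 9.68, 10.8 and 35.5, while Cdx2 at 7.47, 1 and 6.43 and Elf5 at 16.2, 11.8 and 13.6 were under the floor. Tpbpa, a further marker gene of trophoblast, was called higher, by 1.03 on the log2 scale, close to the 2-fold limit. The part of such cells in the differences was not tested.

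Genes that respond quickly to stimulation or handling went both ways, 3 of 29 higher and 3 lower. Atf3 read 135, 119.8 and 1037, 8.09-fold higher, Jun 562, 1215 and 2759 and Junb 318, 721 and 1494; Egr1, which ERK signalling induces, read 1757, 3397 and 1164, 2.9-fold lower, and the heat shock gene Hspb1 1808, 2508 and 1001. Dusp4, a phosphatase of the ERK feedback loop, read 132, 173 and 889.9, 4.93-fold higher. Gadd45g and Phlda1, both named after their values were seen, read 98.2, 120.0 and 1326 and 198, 417 and 3371. Cell death genes were rarely called: Bcl2l11, which encodes Bim, was higher at 618, 585 and 1504, and Pmaip1, which encodes Noxa, and Bid were lower at 629.9, 325 and 77.8 and 640.0, 448 and 158. The part of handling in these differences was not tested.

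Cyp26a1, which breaks down retinoic acid, read 11.6, 10.3 and 114. In the KLF family, zinc finger regulators, 2 of 14 genes were higher and 4 lower. Klf3 read 475, 769 and 1839.7 and Klf7 414, 361 and 732, both higher, and Klf5 303, 344 and 120.1, Klf9 1439, 1311 and 575 and Klf15 299, 198 and 52.7 were lower, as was Klf2; the probe sets of Klf9 differ in sign. In the Hox and Cdx list 3 of 18 measured genes were higher and 0 lower, but only their cofactor gene Meis1 was well above the floor, and Hoxa4 reached 26.8 and Hoxa9 29.5 in Flk1+ cells. In the tetraspanin family 4 of 21 genes were higher and 3 lower. Tspan18 read 43.9, 38.6 and 219 and Tspan9 373, 811 and 1838, both higher, and Cd9, a surface marker of stem cells, 552, 469 and 118 and Tspan13 3466, 1494 and 527 were lower. Among potassium channels Kcnk6 read 178, 129 and 1119, 8.15-fold higher, and Kcnk1 1289.8, 543 and 213, 2.48-fold lower.

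Genes of growth and basic metabolism differed little. None of 35 replication and mitosis genes was past 2-fold (range -0.51 to 0.36 on the log2 scale), with Pcna at 10593, 10781 and 9799.8 and Mki67 at 2719.8, 2860.0 and 3558. The same held for 31 respiratory chain genes (-0.55 to 0.27) and 27 genes of cholesterol and fatty acid synthesis (-0.77 to 0.94). Of 31 cell cycle genes 1 was higher, the Cdk inhibitor gene Cdkn2b at 22.1, 25.7 and 75.9. Fuel supply showed a few lower genes: the glucose transporter gene Slc2a1 read 6898, 4993 and 2250.4, Aldoc of glycolysis 949, 756 and 263, and the serine and glycine enzyme genes Phgdh and Gldc 2438, 1294 and 583 and 1775, 659 and 264. For Slc2a1, Phgdh and Gldc the untreated array was the highest of the 3. Of 25 imprinted genes 4 were higher, among them Igf2 and Grb10, a growth inhibitor gene at 2378, 4351 and 8769.8, and 5 lower, among them Mest at 249, 343 and 83 and Phlda2 at 743, 781 and 232.

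Genes with large differences and less settled roles completed the list. Higher were Car8, a carbonic anhydrase relative without enzyme activity, at 6.44, 12.9 and 993, Tnfaip2 at 18.1, 45.5 and 1341, Myzap at 19.7, 31.7 and 1591, the phosphatase genes Dusp2 at 34.3, 36.5 and 804 and Ptpre at 3.46, 15.5 and 399, the tetraspanin gene Tspan8 at 17.9, 22 and 409.7, and Ppp1r13b at 116, 194 and 2296. The channel subunit genes Scn3b at 29.8, 77.2 and 1253 and Kcne3 at 1.76, 1.16 and 152 were higher as well. All of these were at most 194 in induced Flk1- cells. Lower were Fbxo15 at 434, 599 and 50.6, the retinoid binding protein gene Crabp2 at 756, 450.1 and 44.2, the fusion peptide gene Mymx at 211, 325 and 30.4, the tubulin regulator gene Camsap3 at 601, 289 and 35.5, and Trh, the thyrotropin-releasing hormone gene, at 3135, 843 and 91.1. In 2 of the higher genes it was the induced Flk1- array that stood alone. Rbm15b, an RNA-binding protein gene, read 969, 55.7 and 1036, but the differences of its 3 measured probe sets ranged from 0.26 to 4.003 on the log2 scale, and the sodium and proton exchanger gene Slc9a3 read 199.8, 16.9 and 209.5. These were the only measured genes at least 4-fold lower there than on both other arrays when those lay within 2-fold of each other.

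**Figure D5:**
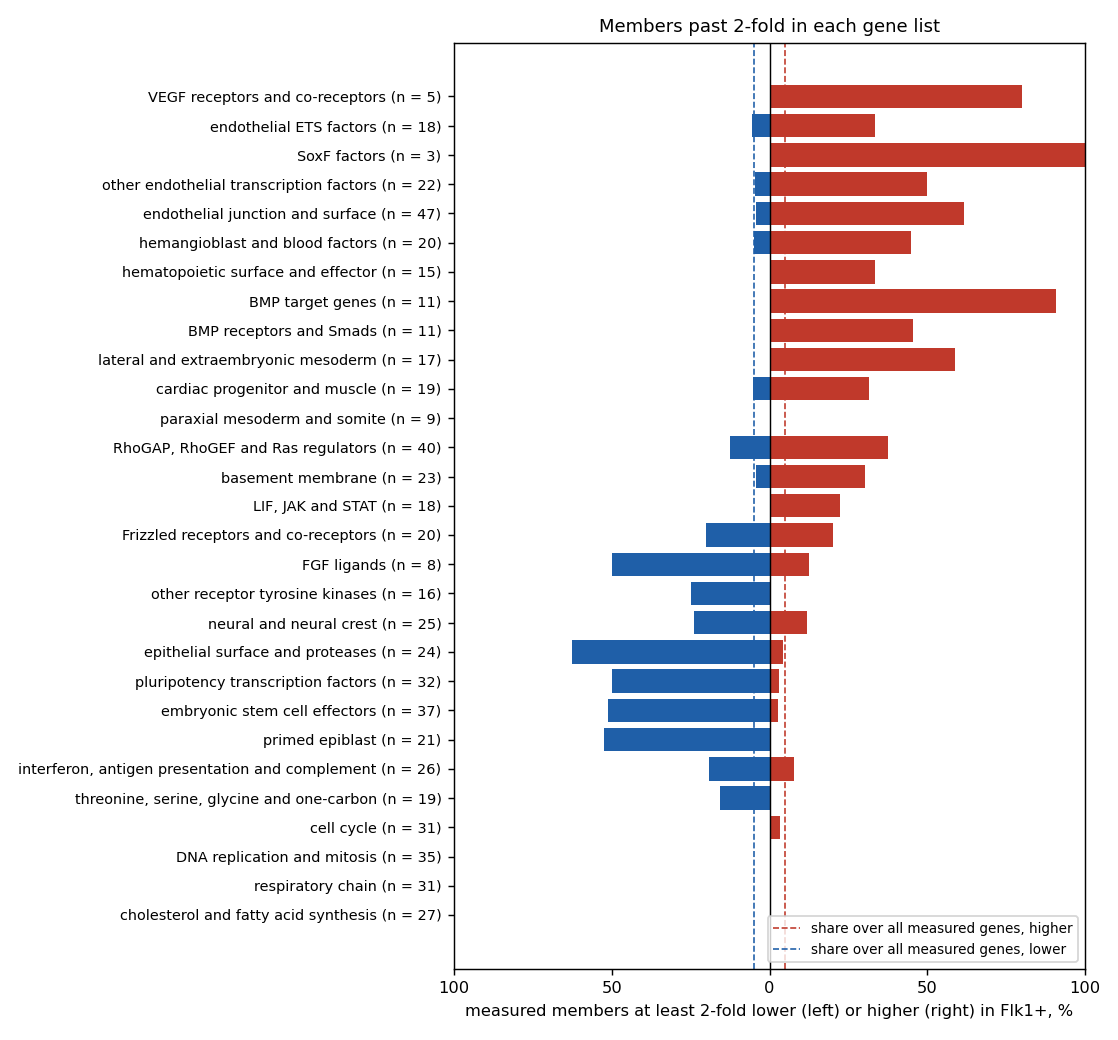
Percentage of the measured members of 29 gene lists that were at least 2-fold higher (red, right) or lower (blue, left) in Flk1+ than in Flk1- cells; dashed lines mark the shares over all measured genes, 5.06% and 4.96%. Vascular, BMP target and lateral mesoderm lists extend to the right, epithelial surface, pluripotency and epiblast lists to the left, and the lists of replication, respiration and cholesterol synthesis have no member past 2-fold.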

How the data were processed

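RNA from sorted A2.snail cells was hybridised to Affymetrix arrays, 1 per group, after labelling from 2 ug of total RNA, per the labels' protocols. The authors deposited 1 linear intensity per probe set; how probe sets were summarised and scaled is not stated in any label or file header. Of 45037 probe sets 34945 had 1 gene symbol in the platform annotation and were used, after a match of Entrez IDs brought symbols up to date with RefSeq's genes of GRCm38.p6 (204 without a match kept theirs). Each gene took its probe set with the highest mean over the 3 arrays. Differences are log2(intensity + 9.53), Flk1+ minus Flk1-, on the values as deposited, whose array medians were 42.7, 42.4 and 44.6. The number of arrays limits the precision, and there is no replicate check.

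The comparison, the 109 gene lists and the motifs were chosen with earlier results of these data known, and the lists are textbook knowledge. Genes named are Kdr, Snai1, the top 40 genes in each direction by size of difference, if their measured probe sets had 1 sign, measured list members and adjacent called genes; only part of them is named, and others are said to be named after their values were seen. Gene calling was tested on simulated data. Python 3.11.15, numpy 2.4.6 and pandas 2.3.3 were used. Alternatives were normalisation, centring, the choice of probe sets, the floor and the offset.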

Additional observations from a re-analysis of the deposited data

How the results depend on the processing

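No paired analysis was possible because each group had 1 array. The counts of 689 higher and 676 lower genes ranged from 496 and 462 with the offset at the 40th percentile to 932 and 866 with no offset, always within 1.5 times. Higher genes made up 47.4% of the calls with quantile normalisation and 53.03% with arrays centred on their median, against 50.5% as reported. Of 281 genes named in the report 238 kept their side of 2-fold under every alternative that could be computed. None that was called changed sign, and the sign of genes within 2-fold was not part of this count. With the mean of all probe sets 25 lost their call and 3 (Dnmt3b, Nrp2 and Vim) gained a call. With the offset at the 40th percentile 16 lost theirs. With probe sets that may match more than 1 transcript left out, 3 (Esrrb, Snai2 and Vim) gained a call. Of 109 list medians 65 stayed within 0.25 under every alternative, and no median of 0.5 or more in size changed sign. The share of promoter windows with CAGGTG among lower genes stayed between 30.3% and 31.9% under the other settings of these array values. Over all measured genes it was 19.7% with no floor and 16.6% with the floor at the 60th percentile, and for higher genes it ranged from 11.4% with that floor to 17.4% with no offset, the last close to the 18.2% of all measured genes. When any window listed for a gene counted, an alternative chosen after seeing the data, the share was 36.1% for lower, 20.1% for higher and 21.7% for all measured genes, so the gap between higher and all genes narrowed while that of lower genes remained. Values near the floor of 25.6 limit what dim genes can show.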
